A study of Mus musculus with 8 samples.

Results

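The Ccr2 marrow monocytes were the cell barcodes of an adult mouse tibia library that carried transcripts of the chemokine receptor Ccr2 and of its companion monocyte genes Ms4a6c, F13a1 and Ms4a4c. A barcode was a member if it held at least 1600 detected genes, at most 20% mitochondrial unique molecular identifiers (UMIs, which count captured transcripts), at least 1 Ccr2 UMI and at least 3 UMIs of Ms4a6c, F13a1 and Ms4a4c together. S100a8 had to be under 100 and the sum of Elane, Prtn3 and Mpo under 40 UMIs per 10000, Siglech at 0, and C1qa plus C1qb under 5 UMIs, which set aside neutrophils, early myeloid precursors, plasmacytoid dendritic cells and resident macrophages by their usual genes. Of 12564 barcodes, 4460 passed the gene floor and the mitochondrial limit, and 588 of these were members (13.2%, 95% exact binomial interval 12.2 to 14.2). The members were thus chosen by measured transcripts of these cells, and the levels of the genes in the rule are given below only as a description.

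The tibiae came from mice at P56 (8 weeks) that all carried 1 floxed allele of Mmp14 (MMP14 F/+), the Cre line COL10A1cre, which acts in hypertrophic chondrocytes, the Cre-dependent reporter R26-tdT and the transgene Col1a1-2.3-GFP, a GFP driven by the 2.3 kb Col1a1 promoter of osteoblasts. Cells of 3 mice were pooled, and there was 1 group, with no control or treated arm. The 8 labelled samples could not be told apart in the matrix, in which every barcode ended in 1 common suffix, so the library was treated as 1 sample and no test between groups of cells was run. The authors did not keep the early trypsin digests of the bone, in which blood cells were most abundant, and sequenced cells from the later dispase and collagenase steps, so that the number of monocytes here is what this digestion released and not their share of the marrow.

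Classical monocytes are made in the bone marrow from dividing precursors and are released from it through the receptor Ccr2. In mice they carry high surface Ly6C, and they can give rise to Ly6C-low patrolling monocytes, to macrophages and, in inflamed tissue, to cells with features of dendritic cells. They are also among the precursors from which osteoclasts can form. F13a1 encodes the A subunit of clotting factor XIII, which cross-links fibrin, and Ms4a6c and Ms4a4c encode membrane proteins of 1 gene cluster. MHC class II molecules present peptides to helper T cells, and their genes are turned on together by the coactivator Ciita, which is brought to the promoters by factors bound at the X and Y boxes.

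Within the monocytes the lowest ratios described below were those of MHC class II genes, and promoters of this group are shown first for that reason. In the RefSeq promoter table (GRCm38.p6), stretches upstream of 3 MHC class II genes read as follows, 5′ to 3′ on the strand of the gene, with the letters searched for as the X box (CTNGNAAC) and as the Y box (TGATTGG) in capitals.
H2-Aa, chr17:34287855-34287919, minus strand: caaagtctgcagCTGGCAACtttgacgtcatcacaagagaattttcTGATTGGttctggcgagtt
H2-Eb1, chr17:34305761-34305824, plus strand: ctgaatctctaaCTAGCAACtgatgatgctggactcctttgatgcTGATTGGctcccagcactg
H2-Ob, chr17:34238803-34238864, plus strand: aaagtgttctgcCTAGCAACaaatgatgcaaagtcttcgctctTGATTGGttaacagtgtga
The 2 sets of letters lay 26, 25 and 23 bases apart in H2-Aa, H2-Eb1 and H2-Ob. Of 32851 promoters of 250 bases before a start, 10.9% held the X letters on either strand and 7.23% held the Y letters, while the pair with 20 to 30 bases between them on the same strand stood in 11 promoters (0.0335%) of 10 genes. H2-DMb1 also held the pair, so that 4 of the 7 listed MHC class II genes in the table did. Cd74 was left out of the 7 and was not among the 10 genes with the pair. The spacing was chosen after these sequences had been read, and a match of letters describes the sequence and does not show that a factor binds there.

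In the genome build of the counts (mm10, positions from GENCODE M21), the 4 genes of the rule lie apart from this group. Ccr2 is at chr9:124101950-124113557, F13a1 at chr13:36867178-37050244, Ms4a6c at chr19:11469366-11482192 and Ms4a4c at chr19:11404770-11427246. H2-Aa, H2-Ab1, H2-Eb1 and H2-DMb1 lie close together on chromosome 17, at chr17:34282744-34287823, chr17:34257689-34269419, chr17:34305867-34316674 and chr17:34153072-34160230.

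The 588 monocytes held 6086843 of the 91463572 UMIs in the matrix. Their totals ran from 4133 to 60423 UMIs per cell with a median of 8239.5, and the median cell held 2362.5 detected genes and 2.91% mitochondrial UMIs. Levels are given as UMIs per 1000000 UMIs (CPM) pooled over the cells of a class, and their 95% intervals are exact Poisson intervals that cover counting error only, not differences between mice. A share of cells with a UMI is given as counted or, where said, after each cell was thinned to 3000 UMIs.

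The other kept barcodes were divided into classes that served as a reference. There were 75 C1q cells, which had at least 5 UMIs of C1qa plus C1qb and whose median total was 8250 UMIs, 1370 S100a8-high cells (median 13027), 179 Elane-Mpo cells (median 23434), 179 Siglech cells (median 6675) and 2069 remaining cells (median 9696). The genes of the rule stood as the rule requires. Ccr2 was at 413 CPM (397 to 430) in the monocytes, 75.7 in C1q cells, 67.4 in Siglech cells, 52.1 in Elane-Mpo cells, 10.3 in S100a8-high cells and 5.69 in the remaining cells. Ms4a6c was at 886 CPM in the monocytes and at 334 in the C1q cells, and 99.5% of monocytes held a UMI of it. Ms4a4c was seen in 80.4% of monocytes, and F13a1 in 88.4%. Reads of the closely related Ms4a genes can be split between copies, and their counts are uncertain to that extent.

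Monocyte genes outside the rule were present. Ly6c2, which encodes the surface antigen Ly6C and has the near-identical copy Ly6c1, was at 1627 CPM (1595 to 1659) in the monocytes and was seen in 90.6% of them. It was not particular to them, since Elane-Mpo cells held 1230 CPM and S100a8-high cells 1013 CPM. Csf1r, the receptor for the growth factor of monocytes and macrophages, stood at 190 CPM (179 to 201) in the monocytes, 538 CPM in C1q cells and 7.94 CPM in S100a8-high cells. Fn1, which encodes the matrix protein fibronectin, was at 1197 CPM in the monocytes, 78.3 in C1q cells and 70.5 in S100a8-high cells, but at 1108 in the remaining cells. Lyz2, the lysozyme gene of myeloid cells, was at 15325 CPM in the monocytes, 7866 in S100a8-high cells and 4427 in C1q cells. H2-Aa was seen in 18.9% of monocytes and in 6.15% of Elane-Mpo cells, whose median total was higher.

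**Figure D1:**
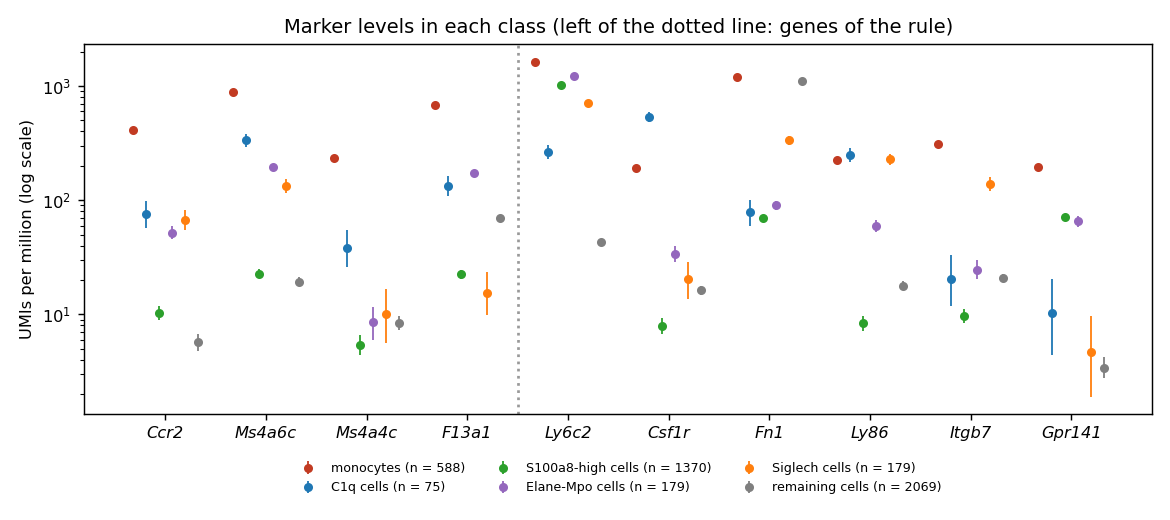
Pooled level of each marker gene in CPM (log axis) in the monocytes and in the other classes of kept barcodes, with genes of the rule to the left of the dotted line. Ccr2 is at 413 in the monocytes and at most 75.7 elsewhere, whereas Ly6c2 is also above 1000 in the S100a8-high and Elane-Mpo cells and Csf1r is highest in the C1q cells.

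Barcodes near the limits of the rule were set beside the members. The 84 monocytes with exactly 1 Ccr2 UMI (median 8024.5 UMIs) held Ly6c2 at 1385 CPM and Csf1r at 190 CPM, against 1663 and 190 CPM in the 504 with more, but H2-Aa was at 1656 CPM in the 84 and 571 CPM in the 504. The 178 barcodes that failed only for want of a Ccr2 UMI had more UMIs (median 12858) but Ly6c2 at 198 CPM, Csf1r at 43 CPM and Lyz2 at 2300 CPM. Another 76 failed only the 3-UMI sum, with Ly6c2 at 56 CPM. The 59 barcodes past the Elane, Prtn3 and Mpo limit alone held Ly6c2 at 1832 CPM and Csf1r at 76 CPM at a median of 26984 UMIs, and the 41 past the S100a8 limit alone held Ly6c2 at 1237 CPM, Csf1r at 110 CPM and Lyz2 at 14349.5 CPM, so that these limits cut through cells with monocyte transcripts. The 17 barcodes past the Siglech limit alone had Ly6c2 at 893 CPM and Csf1r at 66.2 CPM. The 12 barcodes past the C1q limit alone had Csf1r at 646 CPM and H2-Aa at 4076 CPM. Only 9 members had exactly 3 UMIs in the sum, 3 had S100a8 at 50 or more per 10000 UMIs, and 8 had any C1qa or C1qb UMI.

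The monocytes were then split by F13a1. F13a1-high cells, with at least 3 F13a1 UMIs, numbered 426 (72.4%, 68.6 to 76.0), F13a1-middle cells, with 1 or 2, numbered 94, and F13a1-zero cells 68 (11.6%, 9.09 to 14.4). The split follows depth in part, since median totals were 8767.5, 7367 and 7251.5 UMIs. Ratios below compare pooled CPM in F13a1-high with that in F13a1-zero cells as log2, with exact intervals conditional on the total count. Of 7255 genes with at least 50 UMIs over both groups, 13.7% were higher in F13a1-high cells by 2-fold or more and 2.83% were lower, and the median gene stood at 0.24. The other marker genes of the rule, Ccr2, Ms4a6c and Ms4a4c, differed by less than 2-fold. The genes that the rule limits from above, such as S100a8, are not compared here. Ccr2 was at 415 CPM (396 to 433) in F13a1-high and 340 CPM (293 to 392) in F13a1-zero cells, Ms4a6c at 902 CPM (875 to 929) and 742 CPM (672 to 817), and Ms4a4c at 222 CPM (209 to 236) and 265 CPM (224 to 312). F13a1-zero cells had to reach the 3-UMI sum on Ms4a6c and Ms4a4c alone, whereas F13a1-high cells reach it by F13a1. The levels of Ms4a6c and Ms4a4c in the groups are thus partly set by the rule.

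All 6 MHC class II genes with enough UMIs were lower in F13a1-high cells by 2-fold or more, against 2.83% of all genes. The 10 listed genes together stood at 1012 CPM in F13a1-high and 23538 CPM in F13a1-zero cells, a log2 ratio of -4.54 (-4.59 to -4.49), and the median of the 6 was -4.81. H2-Aa, an alpha chain, was at 142 CPM (131 to 153) against 4637 CPM (4458 to 4820). H2-Ab1 and H2-Eb1, which encode beta chains, were at 135 against 4558 CPM and at 106 against 3693 CPM. Cd74, the invariant chain that escorts class II molecules, was at 405 against 9741 CPM, a ratio of -4.59 (-4.67 to -4.51). These 4 genes had ratios between -4.59 and -5.12, the lowest 4 of the named-gene ranking.

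The peptide-loading chains H2-DMa and H2-DMb1 followed in the same direction by less, with H2-DMa at 161 against 455 CPM (-1.50, -1.71 to -1.29) and H2-DMb1 at 53.3 against 376 CPM (-2.82, -3.09 to -2.55). H2-Ob, whose promoter is shown above, had 9 UMIs in F13a1-high and 18 in F13a1-zero cells, and Ciita had 9 and 8, too few for the comparison. The difference in H2-Aa was in how many cells held it as well as in its level, since 8.69% of F13a1-high and 66.2% of F13a1-zero cells held a UMI. The F13a1-zero share is above the 6.15% of the Elane-Mpo cells, which are early myeloid precursors with little class II. Class II was not particular to F13a1-zero cells. A UMI of H2-Aa, H2-Ab1 or H2-Eb1 was seen in 73.5% of them, 86.7% of C1q cells and 69.8% of Siglech cells.

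Cell by cell, the sum of H2-Aa, H2-Ab1 and H2-Eb1 was spread widely in the F13a1-zero cells. In these, 18 of 68 cells were at 0, the quartiles were 0, 49.9 and 235 UMIs per 10000, and the highest cell reached 530. In the F13a1-high cells 361 of 426 were at 0, although the highest of them still reached 331. The F13a1-middle cells lay between, with 60 of 94 at 0. With every cell thinned to 3000 UMIs, the share with a UMI of the 3 genes was 7.6% in F13a1-high, 32.0% in F13a1-middle and 67.9% in F13a1-zero cells, the same order as in the unthinned cells (15.3, 36.2 and 73.5%).

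**Figure D2:**
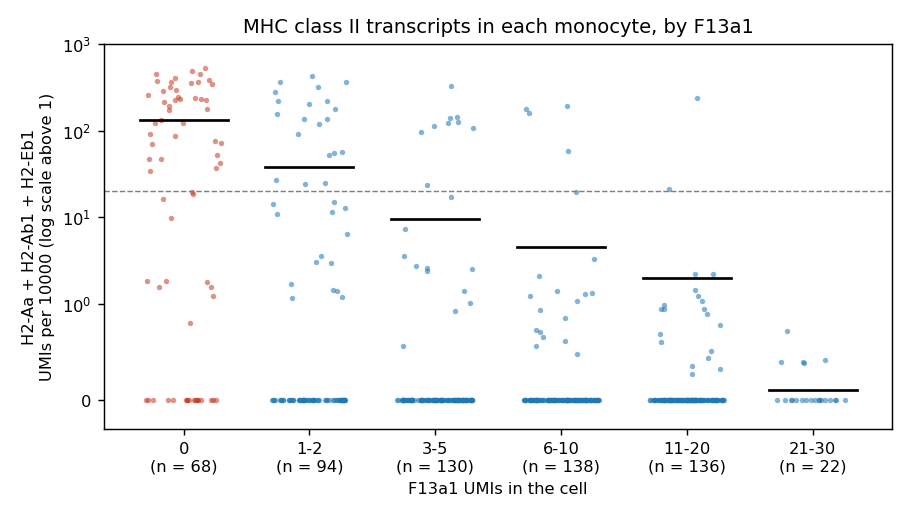
Sum of H2-Aa, H2-Ab1 and H2-Eb1 UMIs per 10000 in each of the 588 monocytes (points, log scale above 1), by the number of F13a1 UMIs in the cell, with bin means as black bars and a dashed line at 20. Of the 68 cells without F13a1, 39 lie at or above the line, and of the 22 cells with 21 to 30 F13a1 UMIs, 0 do.

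Along the whole range of F13a1 the class II level fell stepwise. In bins of 0, 1 to 2, 3 to 5, 6 to 10, 11 to 20 and 21 to 30 F13a1 UMIs, which held 68, 94, 130, 138, 136 and 22 cells, the 3 genes stood at 12888, 4188, 865, 479, 140 and 12 CPM. The median totals of the first 3 bins were nearly the same (7251.5, 7367 and 7306.5 UMIs), and in them the thinned share of cells with a class II UMI was 67.9, 32.0 and 11.7%. The later bins were deeper, at 8354.5, 12347.5 and 18222 UMIs. In all, 74 of the 588 monocytes (12.6%, 10.0 to 15.5) reached 20 UMIs of the 3 genes per 10000, of which 39 were F13a1-zero, 20 F13a1-middle and 15 F13a1-high. That threshold was chosen after the values had been seen.

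Of 24 listed genes of dendritic cells and their precursors 13 could be compared, of which 7 were lower in F13a1-high cells by 2-fold or more and 2 were higher, against 2.83% and 13.7% of all genes, with a median of -1.16. Cd209a, a C-type lectin of monocyte-derived dendritic cells (chr8:3743397-3748984), was at 23 CPM against 229 CPM (-3.32, -3.70 to -2.94). Flt3, the receptor for the growth factor of dendritic cell precursors, was at 15.1 against 89.1 CPM (-2.57), Ccr7, which guides dendritic cells to lymph nodes, at 3.97 against 65.5 CPM (-4.04) and Clec10a, a lectin, at 22 against 85.5 CPM (-1.96). In the F13a1-zero cells 1 cell held 30.6% of the Ccr7 UMIs. Cd24a and Naaa were the 2 higher, at 1.13 and 1.02. Cst3 supplied 63.7% of the UMIs of this list at a ratio of -0.51, and without it the list stood at -1.0 in place of -0.70.

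Some genes of Ly6C-low monocytes were lower too. Of 15 compared, 5 were lower by 2-fold or more, where 2.83% of all genes were, and 1 was higher (Spn at 1.01), with a median of -0.59. The whole list stood at -0.21 (-0.28 to -0.14), and at -0.70 without Cebpb, which supplied 58.2% of its UMIs. Gngt2, a G-protein gamma subunit, was at 53.9 CPM in F13a1-high and 273 CPM in F13a1-zero cells (-2.34), Adgre4, an adhesion receptor, at 8.78 and 85.5 CPM (-3.28) and Fcgr4, an activating Fc receptor, at 7.94 and 27.3 CPM (-1.78). Ace, the angiotensin-converting enzyme, had 17 and 21 UMIs, too few to be counted among the 15 (3.55 and 38.2 CPM). Other genes commonly used for this kind of monocyte differed by less, with Nr4a1, its transcription factor, at 489 and 702 CPM (-0.52) and Cx3cr1, the fractalkine receptor, at 43.1 and 67.3 CPM (-0.64, -1.15 to -0.10).

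**Figure D3:**
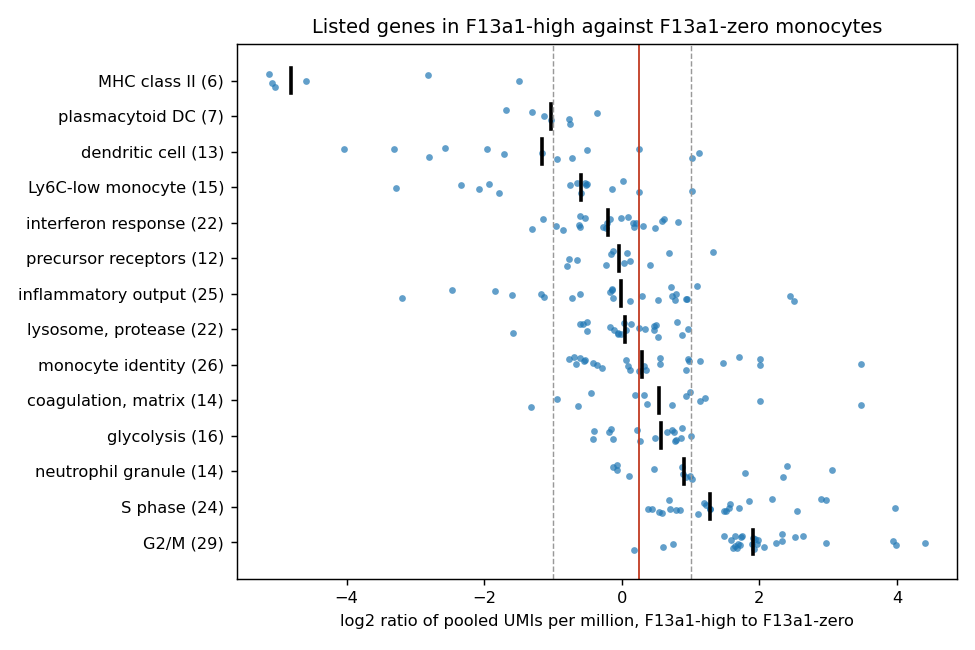
Log2 ratio of pooled CPM in F13a1-high to F13a1-zero monocytes for the listed genes that could be compared, one row per gene list. The 6 MHC class II genes all lie below -1 with a median of -4.81, 26 of 29 G2/M genes lie at or above 1, and most other lists straddle the median over all genes of 0.24.

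The F13a1-zero cells were divided further by class II. Of the 68, the 39 with class II at 20 or more per 10000 and the 29 under it (median totals 7418 and 6664 UMIs) were set beside the 411 F13a1-high cells under it (median 8890). H2-Aa was at 7831 CPM in the 39 cells, 123 CPM in the 29 and 10.1 CPM in the 411, which describes the split itself. Cd209a was at 382 CPM in the 39 (123 UMIs), 13.2 in the 29 (3 UMIs) and 18.7 in the 411, Ccr7 at 112 CPM in the 39 with 0 UMIs in the 29, and Cxcl16, a membrane-bound chemokine, at 410, 65.8 and 43.9 CPM. Thus Cd209a and Cxcl16 were high in the 39 cells and at about the level of the 411 in the 29. Flt3 was at 109, 61.4 and 13.8 CPM. All F13a1-high cells together held 110 Cd209a UMIs, of which 87 were in the 411, and 232 Cxcl16 UMIs, of which 204 were. The rest were in the 15 F13a1-high cells at or above the threshold, which held 132412 UMIs in all.

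Single Ly6C-low genes were distributed differently. Adgre4 was at 83.8 CPM in the 39 class II-high cells, 87.7 in the 29 and 8.82 in the 411, with a ratio of 39 to 29 of -0.07 (-0.95 to 0.84). Ace was at 24.8, 57.0 and 3.44 CPM, and Gngt2 at 199, 377 and 53.5 CPM. Csf1r was at 242, 342 and 168 CPM. These genes were named individually, and the whole Ly6C-low list did not follow them: relative to the 29 cells its ratio was -0.58 in the 39 (-0.71 to -0.46) and -0.51 in the 411 (-0.60 to -0.42), so that the 39 and the 411 stood at similar levels. Cebpb supplied 58.2% of the UMIs of this list over F13a1-high and F13a1-zero cells, and these ratios were not taken without it.

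Genes of classical monocytes were lowest in the 39 cells, where the list as a whole had a ratio to the 29 of -1.0 (-1.05 to -0.94), while its ratio of the 411 to the 29 was 0.11 (0.07 to 0.15). Ly6c2 was at 183 CPM in the 39 class II-high cells, 1338 in the 29 and 1865 in the 411. In the 29 cells 1 cell held 37.7% of the Ly6c2 UMIs, and the median cells were at 0, 6.25 and 17.7 UMIs per 10000 in the 3 sets. Lyz2 was at 5328, 12544 and 16010 CPM and Chil3, a chitinase-like protein of classical monocytes, at 205, 825 and 1623 CPM. Fn1 was at 193, 544 and 1395 CPM. Among cells under the class II threshold, Vcan still had a ratio of F13a1-high to F13a1-zero of 3.23 (1.37 to 6.29), on 384 and 2 UMIs.

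**Figure D4:**
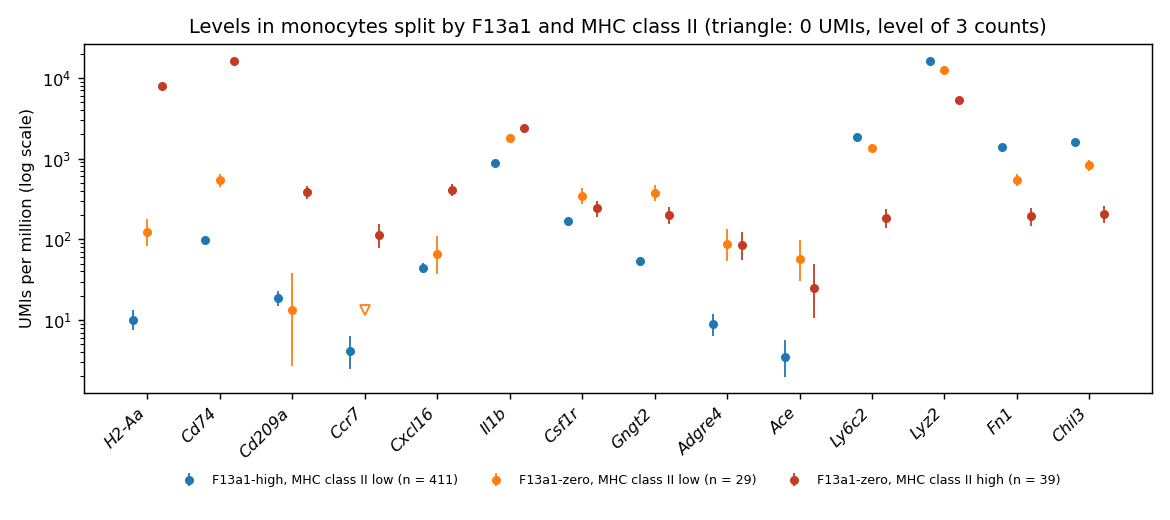
Pooled level in CPM (log axis) of genes in F13a1-high cells under the MHC class II threshold (n = 411), F13a1-zero cells under it (n = 29) and F13a1-zero cells at or above it (n = 39), with a triangle at the level of 3 counts where no UMI was found. Cd209a is at 382 in the 39 cells and under 20 in the other sets, Adgre4 is at 83.8 and 87.7 in the F13a1-zero sets against 8.82 in the 411 cells, and Ly6c2 is at 183 in the 39 cells against 1338 and 1865 in the other sets.

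Of the 24 listed dendritic cell genes, 23 had a UMI in the 39 cells, 18 in the 29 and 24 in the 411, and the list stood at 5338 CPM there, 4203 CPM in the 29 and 2966 CPM in the 411. Clec10a was at 143 CPM (105 to 191) in the 39 cells and 19.8 CPM in the 411, and Itgax, which encodes CD11c, at 52.8 CPM (30.8 to 84.5) and 2.37 CPM. Zbtb46, the transcription factor of conventional dendritic cells, had 8 UMIs in the 39 cells (24.8 CPM, 10.7 to 48.9) and 1.29 CPM in the 411. Mgl2 had 20 UMIs, in 3 cells, Batf3 4, Clec9a 3 and Xcr1 1, which at this depth leaves their levels imprecise. Ccr2 itself was at 273 CPM (219 to 337) in these cells and at 434 CPM (353 to 529) in the 29. B cells also carry class II transcripts, and 9 of the 10 listed B cell genes were found in the 39 cells, 7 in the 29 and all 10 in the 411. The 39 cells held 87 UMIs of them (270 CPM, against 219 CPM in the 29 and 174 CPM in the 411). Of those 87 UMIs, 1 cell held 55.2%. Cd79a, a defining chain of the B cell receptor, was at 78 CPM in the 39, 26 CPM in the 29 and 25 CPM in the 411 and was seen in 10.3% of the 39 cells. Plasmacytoid dendritic cells carry class II too, and of 7 of their genes outside the rule 4 were lower in F13a1-high than in F13a1-zero cells, where 2.83% of all genes were. That list stood at 578 CPM in the 39 cells, 1027 CPM in the 29 and 338 CPM in the 411. The part of RNA of B cells or plasmacytoid dendritic cells in these class II levels was not tested. The rule holds no limit on genes of conventional dendritic cells, and whether the 39 cells are monocytes or such dendritic cells was not tested.

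Most listed genes of classical monocytes did not differ by 2-fold along F13a1. Of 26 listed genes of classical monocytes outside the rule, 6 were higher in F13a1-high cells by 2-fold or more and 0 were lower, against 13.7% and 2.83% of all genes. Their median was 0.29, close to the 0.24 of all genes, and the list ratio was 0.60 (0.57 to 0.63), 0.30 without Lyz2 and 0.11 among cells under the class II threshold. Ly6c2 was at 1840 CPM (1802 to 1879) in F13a1-high and 662 CPM (596 to 733) in F13a1-zero cells (1.48, 1.32 to 1.63). Fn1 was at 1367 against 338 CPM (2.02, 1.80 to 2.23). Vcan, which encodes the matrix proteoglycan versican, was at 80.7 against 7.27 CPM (3.47, 2.10 to 5.36). Hp, which encodes haptoglobin, was at 612 against 153 CPM (2.00). Csf1r went the other way, at 167 against 284 CPM (-0.76, -1.01 to -0.50).

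Over the F13a1 bins Ly6c2 climbed from 662 to 978, 1239, 1748, 2084 and 2473 CPM, and its thinned share from 45.2 to 71.3, 83.3, 94.0, 96.1 and 95.2%. Fn1 behaved differently, with 338, 745, 1424, 1503, 1356 and 845 CPM, so that it was highest in the middle of the F13a1 range. Ccr2 had no such trend, at 340, 459, 510, 429, 365 and 362 CPM.

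Some neutrophil granule genes were higher in the F13a1-high cells. Of 14 compared, 5 were higher there by 2-fold or more, and none of the 14 were lower by that much, against 13.7% and 2.83% of all genes. Mmp8, a collagenase of neutrophil granules, was at 75.3 against 9.09 CPM (3.05, 1.81 to 4.68), Ctsg, which encodes cathepsin G, at 115 against 21.8 CPM (2.40, 1.58 to 3.36). The Ctsg ratio was 2.27 without the cells that carried markers of other types, described below, but 0.52 among cells of 5000 to 15000 UMIs. Lyz2 supplied 84.7% of the UMIs of this list at 0.93. Without Lyz2 the list held 13764 UMIs in F13a1-high and 741 in F13a1-zero cells (1.09). Of these, Chil3, named above as a protein of classical monocytes, had 7548 in the 411 F13a1-high cells under the class II threshold alone. These list ratios thus rest largely on Lyz2 and Chil3. The list ratio was 0.96 over all cells and 0.39 among cells under the class II threshold, and it was -1.17 for the 39 class II-high F13a1-zero cells relative to the 29 others.

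Other genes of the named-gene ranking had few UMIs in F13a1-zero cells. Sort1, which encodes the sorting receptor sortilin, had 215 UMIs in F13a1-high cells and 1 in F13a1-zero cells, a ratio of 4.63 whose interval runs from 2.13 to 9.94. Clec5a, an activating receptor of myeloid cells, had 173 and 2 UMIs, Itga1, a collagen-binding integrin chain, 413 and 7, and Nfe2, a transcription factor of blood cells, 221 and 4. On the lower side stood Slamf7, a receptor of the SLAM family, at 10.9 against 96.4 CPM (-3.15), Ramp3, an accessory chain of calcitonin-type receptors, at 9.62 against 69.1 CPM (-2.84), Basp1 at 46.2 against 305 CPM (-2.72) and Rgs1, a regulator of G-protein signalling, at 152 against 791 CPM (-2.38).

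Cell cycle genes were higher in the F13a1-high cells. Of 29 genes of G2 and M phase, 26 were higher by 2-fold or more and 0 lower, with a median of 1.91, and of 24 S phase genes 16 were higher and 0 lower, with a median of 1.29, against 13.7% of all genes. The G2/M list stood at 2680 CPM against 845 CPM (1.66, 1.53 to 1.80) and the S phase list at 1343 against 589 CPM (1.19, 1.03 to 1.35). Mki67, the proliferation antigen, was at 348 against 90.9 CPM, Top2a, a topoisomerase of dividing cells, at 280 against 74.5 CPM, and Ccnb1, a mitotic cyclin, had a ratio of 3.99. Tyms and Fen1, of DNA synthesis, had ratios of 2.96 and 2.89, and Hist1h2ae, a replication-dependent histone gene, 2.42.

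This difference was found in the cells with 6 or more F13a1 UMIs and not below. The G2/M list was at 845, 838, 752, 2549, 3240 and 5207 CPM in the 6 bins, and the S phase list at 589, 474, 432, 1271, 1703 and 2137 CPM. After thinning to 3000 UMIs, 17.9, 13.2, 17.2, 33.3, 50.3 and 79.8% of cells held a UMI of Mki67, Top2a or Birc5. The F13a1 bins were cut on raw UMIs, and the median total rose along the same axis. Among cells of 5000 to 15000 UMIs the G2/M ratio was 0.98 in place of 1.66. Within the F13a1-zero cells the class II-high and class II-low sets differed little, with ratios of -0.13 for G2/M and -0.28 for S phase genes.

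**Figure D5:**
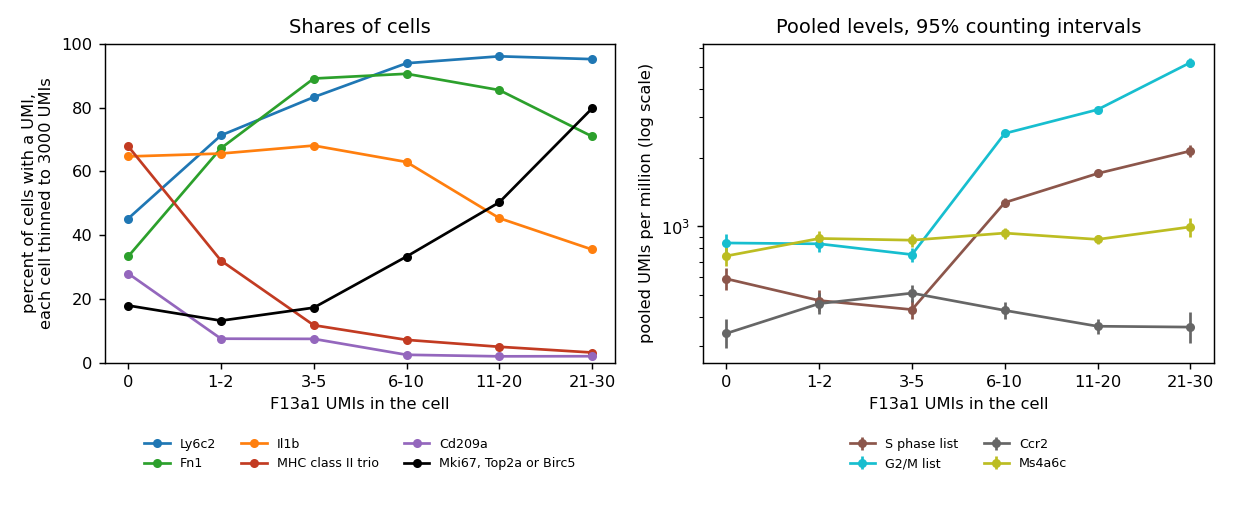
Thinned shares of cells with a UMI (left, percent) and pooled levels in CPM with 95% counting intervals (right, log axis) over bins of F13a1 UMIs per cell. The class II share falls from 67.9% to 3.2%, the share with Mki67, Top2a or Birc5 rises from 17.9% to 79.8%, and the Ly6c2 share climbs to over 90% by 6 to 10 F13a1 UMIs.

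Of 25 secreted inflammatory mediators compared, 4 were higher in F13a1-high cells by 2-fold or more, near the 13.7% of all genes, and 6 were lower, where 2.83% of all genes were. Il6, an interleukin, was at 159 CPM (148 to 171) in F13a1-high and 29.1 CPM (16.6 to 47.2) in F13a1-zero cells, a ratio of 2.45. Ccl4, a chemokine, was at 92.8 against 16.4 CPM (2.5), with 24.5% of its UMIs in 1 cell. Cxcl2, a neutrophil-attracting chemokine, was at 5809 against 3375 CPM (0.78) and supplied 44.0% of the UMIs of the list, which stood at 0.27 with it and at -0.05 without it.

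Il1b, the precursor of interleukin 1 beta, was lower in F13a1-high cells, at 940 against 2127 CPM (-1.18, -1.27 to -1.08), with 71.6 and 72.1% of cells holding a UMI (57.5 and 64.7% after thinning). Over the F13a1 bins it was at 2127, 1456, 1586, 1167, 540 and 467 CPM, and it was high in both kinds of F13a1-zero cell (2363 and 1794 CPM). The 411 F13a1-high cells under the class II threshold held it at 891 CPM, below the 940 of all F13a1-high cells. The 15 F13a1-high cells at or above that threshold were therefore higher. Cxcl16 was at 48.5 against 267 CPM (-2.46), and Il10, an anti-inflammatory cytokine, at 7.32 against 67.3 CPM (-3.20). Ccl5 was at 21.7 against 78.2 CPM, with 46.5% of its F13a1-zero UMIs in 1 cell.

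Clotting and matrix genes included 4 of 14 that were higher by 2-fold or more and 1 that was lower, where 13.7% and 2.83% of all genes were. F10, which encodes clotting factor X, was at 436 against 198 CPM (1.14, 0.86 to 1.43), and Thbs1, which encodes the matrix protein thrombospondin, at 1411 against 736 CPM (0.94). Both were lowest in the class II-high F13a1-zero cells, with F10 at 93.2 CPM and Thbs1 at 388 CPM in the 39 class II-high F13a1-zero cells and at 347 and 1228 CPM in the 29 others, against 445 and 1432 CPM in the 411.

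Of 19 receptors of cell trafficking, 3 were higher by 2-fold or more and 2 lower, against 13.7% and 2.83% of all genes. Ccr1, a chemokine receptor of monocytes, was at 132 against 25.5 CPM (2.38, 1.62 to 3.26). Cxcr4, the receptor that retains cells in the marrow, was lower, at 171 against 364 CPM (-1.09, -1.32 to -0.86). Interferon-induced genes had 0 of 22 higher and 2 lower, where 13.7% and 2.83% of all genes were. These were Bst2, at 153 against 378 CPM (-1.31), and Isg15 (-1.14). Of 16 glycolysis genes 1 was higher, Aldoa (1.01), and 0 were lower, no more than those shares.

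Of 12 genes through which osteoclast precursors are instructed, 1 was higher and 0 were lower, against 13.7% and 2.83% of all genes, and the list stood at -0.02 (-0.08 to 0.03). Tyrobp, an adaptor of immune receptors, was at 2355 against 2235 CPM, and Fcer1g, another such adaptor, at 1464 against 1427 CPM. Tnfrsf11a, which encodes the RANK receptor of osteoclast precursors, had 20 UMIs in 18 of the 588 monocytes (3.29 CPM, 2.01 to 5.08), against 29.5 CPM in C1q cells. Of 12 osteoclast genes, 10 had UMIs in the monocytes (173 CPM in all, against 418 CPM in C1q cells), and Atp6v0d2 and Calcr had none. The gene that the study addresses, Mmp14, a membrane-bound matrix protease, had 57 UMIs in 13 monocytes (2.21%), of which 1 cell held 42.1%, and 50 of them were in F13a1-high cells, which held 10 once the 30 cells with markers of other types, described below, were left out. In C1q cells it was seen in 37.3% of cells, at 80.8 CPM against 9.36 CPM in the monocytes.

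Some members carried RNA of other cell types. Markers of B, T or NK, basophil, megakaryocytic, stromal and cartilage cells together reached 50 UMIs per 10000 in 9 of the 588 monocytes, and erythroid markers reached 500 in 21. In all, 30 cells passed either limit, of which 24 were F13a1-high, 5 F13a1-middle and 1 F13a1-zero. The globin genes of the named-gene ranking were among the erythroid markers that chose most of these cells, so that a lower ratio without them follows from the choice. Hbb-bs was at 11550 against 849 CPM (3.77) over all cells and had a ratio of -0.23 without the 30 and 1.88 among cells of 5000 to 15000 UMIs, and Hba-a1, at 3.67 over all cells, was at -0.02 and 1.83. Globin copies such as Hba-a1 and Hba-a2 are near-identical, and 99.8% of monocytes held a Hbb-bs UMI.

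The stromal and cartilage list had 18201 UMIs in F13a1-high cells, of which 1 cell held 88.9%, and the basophil and T or NK lists likewise had 94.4% and 74.0% of their UMIs in 1 cell. Pth1r, the parathyroid hormone receptor of the study, had 54 UMIs in F13a1-high and 0 in F13a1-zero cells, and 6 and 0 without the 30 cells. Mmp13, a collagenase of cartilage and bone, had 88 and 3 UMIs over all cells and 1 and 3 without the 30. The main contrasts were of similar size without the 30 cells, with H2-Aa at -4.91, Ly6c2 at 1.54, Il6 at 2.60 and Mki67 at 1.77.

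Against the C1q cells, most genes of resident macrophages were lower in the monocytes. Of 7986 genes compared, 11.0% were higher in the monocytes by 2-fold or more and 11.7% were lower, with a median of 0.01. Of 17 such genes 15 were lower and 1 was higher, Lgals3, which encodes galectin 3, at 2642 against 1103 CPM (1.26). Vcam1, the adhesion molecule of macrophages that support blood formation, was at 5.59 CPM against 1907 CPM (-8.42, -8.95 to -7.93). Mertk, a receptor for dying cells, had 3 and 174 UMIs, Mrc1, the mannose receptor, was at 9.69 against 867 CPM (-6.48), Hmox1, which breaks down heme, at 71.8 against 1893 CPM (-4.72), and Apoe, a lipid carrier, at 862 against 7896 CPM (-3.19). C1qc, the partner of the 2 C1q genes in the rule, had 4 and 1158 UMIs, which follows in part from choosing the classes by those genes.

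In the other direction 12 of 26 genes of classical monocytes were higher than in C1q cells, where 11.0% of all genes were, and 3 were lower, near the 11.7% of all genes. Fn1 was at 1197 against 78.3 CPM (3.93, 3.57 to 4.32), Vcan at 68.7 against 3.85 CPM (4.16) and Gpr141, an orphan receptor, at 196 against 10.3 CPM (4.26). Csf1r (-1.50), Sirpa, the inhibitory receptor for CD47 (-2.01), and Irf8, a transcription factor of the monocyte and dendritic lineages (-1.64), were the 3 lower. Itgb7, an integrin chain, was at 311 against 20.5 CPM (3.92), F10 at 399 against 37.2 CPM (3.42) and Il6 at 135 against 5.13 CPM (4.72). Interferon-induced genes had 11 of 25 higher and 1 lower, against 11.0% and 11.7% of all genes, with Ifitm3, an antiviral membrane protein, at 2936 against 436 CPM (2.75).

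MHC class II genes were lower in the monocytes than in the C1q cells for 4 of 6, where 11.7% of all genes were, and the list ratio was -1.74. H2-Aa was at 714 CPM in the monocytes and 2616 CPM in the C1q cells. The C1q cells also held granule transcripts of neutrophils, with Camp at 2492 CPM against 86.7 CPM in the monocytes, and the part of such RNA in this comparison was not tested.

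Against the S100a8-high cells, which are neutrophils and their precursors by their granule genes, the monocytes differed in monocyte and granule genes. Both classes were chosen by their S100a8 level, so lower granule genes in the monocytes follow in part from that choice. Of 10055 genes, 21.5% were higher in the monocytes by 2-fold or more and 9.87% were lower, with a median of 0.30. Of 26 genes of classical monocytes 22 were higher and 1 lower. Csf1r was at 190 against 7.94 CPM (4.58, 4.33 to 4.83), Ly86, a partner of a Toll-like receptor homologue, at 227 against 8.36 CPM (4.76), Ctss, which encodes cathepsin S, at 766 against 30.5 CPM (4.65), and Klf4, a transcription factor that monocytes need, at 290 against 24.1 CPM (3.59). Ly6c2 differed by less, at 1627 against 1013 CPM (0.68).

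Granule genes outside the rule were lower in the monocytes for 18 of 20, where 9.87% of all genes were. Camp, which encodes cathelicidin, was at 86.7 CPM against 48961 CPM (-9.14), and S100a9, the partner of S100a8, at 377 against 112402 CPM (-8.22). Ltf, which encodes lactoferrin, had a ratio of -8.36, Lcn2, an iron-sequestering lipocalin, -7.81, and Cebpe, the transcription factor of granule genes, -5.41. Inflammatory mediators were higher in the monocytes for 21 of 25, where 21.5% of all genes were, with Il6 at 135 against 2.52 CPM (5.74), Il1b at 1111 against 141 CPM (2.97) and Tnf, tumour necrosis factor, at 677 against 79.1 CPM (3.1). Interferon-induced genes were higher for 25 of 28, against the same 21.5%.

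Cell cycle genes were compared with both classes. Of 30 G2/M genes, 16 were higher in the monocytes than in C1q cells by 2-fold or more and 0 lower, where 11.0% and 11.7% of all genes were, with the list at 2286 against 1075 CPM. Of 24 S phase genes 3 were higher, near that share, and 1 was lower, with that list at 1167 against 1162 CPM and a median of -0.03. Against S100a8-high cells 0 of the 30 were higher and 1 was lower, with the G2/M list at 3213 CPM in those cells, and of the S phase genes 0 were higher and 6 lower, where 21.5% and 9.87% of all genes were.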

How the data were processed

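Cells of the tibiae of 3 pooled mice were profiled with the 10x Chromium 3′ assay. The authors deposited raw counts of UMIs per gene and barcode, which per the file headers and the submitters' processing notes came from Cell Ranger 3.1.0 with mm10, in a matrix of 31053 mouse genes and 12564 barcodes and a second one of exogenous sequences. Which gene annotation was used is not given in the sources here. Seurat 3 was the study's tool for cells and was not used here. The matrix had no barcode under 500 UMIs, and the median barcode had 5417. Of 4472 barcodes at the gene floor, 12 were removed by the mitochondrial limit, which was set here, as the study states no value. No columns of another series were present (0).

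Members and gene lists were chosen with earlier results of these data known, and so were the F13a1 groups. Classes were assigned in the order C1q, S100a8-high, Elane-Mpo, Siglech, after the monocytes had been taken. For each class the UMIs of its cells were pooled and scaled to 1000000, and a gene was compared if the groups together had 50 UMIs or more of it. With 1 sample there was no test and no p-value: intervals of 95% are exact Poisson for levels, exact conditional for ratios and Clopper-Pearson for shares, and each covers counting error only. Thinning to 3000 UMIs was exact. Named genes were the 15 highest and the 15 lowest ratios among genes seen in at least 25% of the cells of the higher group with at most 25% of its UMIs in 1 cell, and the listed genes. Genes named outside this rule, the edges of the rule and the split by MHC class II were chosen after their values were seen. Doublets were not removed: Scrublet (scanpy 1.11.5) with 6% expected doublets marked 1 of 4460 barcodes, which did not work, so cells carrying markers of other types were counted instead and left out in an alternative.

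Python 3.11.15, numpy 2.4.6, scipy 1.17.1, pandas 2.3.3 and matplotlib 3.10.9 were used. The ratios were tested on simulated data. Alternatives were other gene floors, limits of the rule, F13a1 thresholds, depth ranges and gene minima, equal weight for each cell, and leaving out cells with markers of other types, cycling cells or the most abundant gene of a list. Some listed genes are not reported here.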

Additional observations from a re-analysis of the deposited data

Results flagged for a closer look

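The matrix of exogenous sequences was used for no comparison above. The viral element WPRE, which ends the tdTomato reporter transcript, had 446 UMIs in 281 of the 588 monocytes (47.8%, 43.7 to 51.9), at most 10 in 1 cell. After thinning to 3000 UMIs the share was 20.6%, against 39.0% in Siglech cells, 17.9% in C1q cells, 16.5% in the remaining cells, 12.3% in S100a8-high cells and 10.3% in Elane-Mpo cells, and 0 monocytes against 82 remaining cells held over 14 UMIs. tdTomato itself had 24 UMIs in 23 monocytes (3.91%, thinned 1.19%, against 1.16% in all other kept cells). EGFP had 1626 UMIs in 5 monocytes, of which 1622 were in 1 F13a1-high cell. CRE, IRES and LACZ had 0 UMIs in 588 monocytes, which by the limit of 3 counts allows a share of up to 0.510% of cells with a UMI. These values are given because the sequences stand outside the main measurement.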

How the results depend on the processing

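Limits: 1 pool of 3 mice gives no spread between animals, raw F13a1 counts rise with depth, and a gene with under 5 UMIs in the 68 F13a1-zero cells has a ratio known only within wide intervals. No paired analysis was possible because there was 1 group and the matrix does not tell its 8 numbered samples apart. Of 145 alternatives (106 planned and 39 chosen after seeing the data) 104 left the value within its counting interval or count range, 41 moved it and 0 reversed it, and all 94 ratios of lists kept their sign. The cause of the moves was not tested.

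With a floor of 2000 genes there were 476 monocytes (377 F13a1-high, 36 F13a1-zero), and the lists stood at -4.65 (MHC class II), -0.58 (dendritic), 1.10 (granule), 0.90 (S phase) and 1.33 (G2/M). With at least 2 Ccr2 UMIs there were 504, 374 and 48 cells, with -4.43 (class II), 0.80 (granule) and 1.77 (S phase). With 5000 to 15000 UMIs there were 492 monocytes, 338 of them F13a1-high, with -4.37 (class II), 1.17 (granule), 0.98 (G2/M) and -0.11 (Ly6C-low). With F13a1 at 5 or more there were 342 F13a1-high cells, with -4.63, 0.91 (granule) and 1.83 (G2/M). Class II was also at -4.66 without F13a1 in the sum, -4.71 with S100a8 under 50, -4.47 with C1q genes at 0 and -4.25 with cells weighing the same. Without cells holding other types' markers, class II was at -4.43, granule at 1.00 and Ly6C-low at -0.13. Without cells holding Mki67, Top2a or Birc5, class II was at -4.04, dendritic at -0.64, granule at 1.07 and Ly6C-low at -0.13. Without its most abundant gene the dendritic list was at -1.0, granule at 1.09 and Ly6C-low at -0.70. With F13a1 at 3 or more per 10000 UMIs granule was at 1.01. Without the highest 6% of Scrublet scores granule was at 1.00 and G2/M at 1.47. With a minimum of 1 UMI, 1487 genes were higher by 2-fold and 1897 lower of 14519, whereas at 50 UMIs 995 were higher and 205 lower of 7255.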
